A study of Mus musculus with 4 samples.

Results

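The values described here are the RNA levels of 10 genes for matricellular proteins, Postn, Tnc, Tnn, Thbs1, Thbs2, Thbs4, Ctgf, Cyr61, Sparc and Spp1, out of 24441 genes in the deposited table. Matricellular proteins are secreted into the extracellular matrix but are not its building blocks, and they bind collagens, growth factors and cell surface receptors and so tune how cells attach, spread and respond. Most of them are low in resting adult skin, appear in wounds and scars, and are made mainly by fibroblasts, with osteopontin, the product of Spp1, also known from macrophages. The genes were picked by name after the difference between GSDMD KO and WT mice in these same libraries was known, with Postn singled out because it was higher in KO mice beside other fibrosis genes. The KO against WT values of the 10 genes and of the fibrosis matrix genes set beside Postn are therefore given as a description with no test.

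Skin RNA was sequenced in 4 libraries, 2 from wild type (WT) mice and 2 from mice of the genotype GSDMD-/- (KO), which lack gasdermin D, the protein that forms membrane pores in pyroptosis. All mice carried the label of the C57BL/6 strain at postnatal week 8, were described as female, and received bleomycin (BLM), an antibiotic used to induce local skin fibrosis, under the skin every other day up to day 28. The KO line was made by injecting Cas9 mRNA and a guide RNA into fertilised eggs, so the knockout was not directed to any one cell type, and no saline-treated library was analysed here. The labels do not say whether the samples of a genotype came from separate mice or litters, so p-values measure only the spread between these 4 samples, which may be technical.

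Levels are in FPKM, fragment numbers divided by transcript length and by library depth, and pairs of values are given for replicate 1 and then replicate 2 of a genotype. Differences are in log2(FPKM + 1), KO minus WT, which understates the change of low genes. The knocked-out gene, Gsdmd, stood at 14.0 and 18.2 FPKM in WT skin against 3.53 and 2.26 FPKM in KO skin. The KO libraries were both lower than either WT library, with a log2 fold change of -2.14 and a standard error of 0.29 (Benjamini-Hochberg adjusted p = 0.248 from limma). A standard error printed beside an adjusted p is limma's, and any other comes from the spread between libraries. Where the guide RNA cuts the gene is not given in the sources used here. The libraries summed to between 448544 and 462251 FPKM, and 1 fragment on 1 kb of transcript was worth about 0.0574 to 0.0783 FPKM, so numbers of fragments below are approximate.

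Both KO libraries stood apart from the WT libraries, and not in the same way. KO replicate 2 had the lowest value of all 8 fibroblast, all 10 macrophage and all 8 endothelial markers. Its summed fibroblast markers came to 41.6 FPKM, against 474 FPKM in KO replicate 1 and 289 and 177 FPKM in WT skin, and its 4 Y-linked genes summed to 1.78 FPKM although the mice were labelled female, while those genes were at 0 in the other libraries. KO replicate 1 had the highest value of 7 of the 8 fibroblast markers and of all 15 hair follicle markers. Levels and differences of the matricellular genes are therefore also given for each KO library on its own. In whole skin, fewer cells of a type and less RNA per cell cannot be told apart.

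Promoter sequences were taken from RefSeq (build GRCm38.p6) as the 250 bases before the start of transcription, and 8 of the 10 genes were matched, with 11 windows. They are shown for 4 of these genes, Postn, which was higher in KO skin, and Cyr61, Sparc and Spp1, which were lower on average. Each window was searched on both strands for GGAATG (the core letters bound by TEAD factors, the partners of YAP and TAZ), CAGACA (bound by SMAD factors of the TGF-beta pathway) and TGANTCA (bound by AP-1), and matches are in capitals, written as they read on the strand of the gene.
Postn, plus strand, chr3:54360857-54361106: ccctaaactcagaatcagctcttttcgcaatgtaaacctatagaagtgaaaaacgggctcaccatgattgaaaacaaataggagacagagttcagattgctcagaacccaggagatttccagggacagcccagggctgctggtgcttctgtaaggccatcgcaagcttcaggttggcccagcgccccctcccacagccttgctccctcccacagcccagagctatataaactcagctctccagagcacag
Cyr61, minus strand, chr3:145649986-145650235: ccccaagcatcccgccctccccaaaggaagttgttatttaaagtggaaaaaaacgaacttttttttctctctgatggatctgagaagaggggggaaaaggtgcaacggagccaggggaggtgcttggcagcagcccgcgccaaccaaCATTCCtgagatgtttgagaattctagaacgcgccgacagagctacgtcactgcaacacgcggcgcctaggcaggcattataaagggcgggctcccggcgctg
Sparc, minus strand, chr11:55420081-55420330: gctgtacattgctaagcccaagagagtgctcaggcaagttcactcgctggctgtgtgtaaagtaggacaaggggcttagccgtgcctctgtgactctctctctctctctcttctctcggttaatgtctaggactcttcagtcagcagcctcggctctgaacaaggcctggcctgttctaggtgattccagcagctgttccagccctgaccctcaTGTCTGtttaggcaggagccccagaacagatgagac
Spp1, plus strand, chr5:104434861-104435110: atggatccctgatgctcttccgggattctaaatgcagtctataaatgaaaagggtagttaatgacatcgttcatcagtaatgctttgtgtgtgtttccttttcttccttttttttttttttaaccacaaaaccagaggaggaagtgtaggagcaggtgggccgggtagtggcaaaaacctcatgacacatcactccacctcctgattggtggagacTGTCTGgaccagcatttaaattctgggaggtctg
The Postn window is the one at which 4 of the 6 coding transcripts of the gene in GENCODE begin, and neither it nor the other RefSeq window of Postn held any of the letters searched. Counted back from -1 at the base before the start, Cyr61 held the reverse of the TEAD letters, CATTCC, from -103 to -98. Sparc and Spp1 each held the reverse of the SMAD letters, TGTCTG, from -36 to -31 and from -34 to -29. Among the 8 matched genes the TEAD letters stood before 3 (Tnn, Thbs4 and Cyr61) and the SMAD letters before 5 (Tnc, Thbs2, Thbs4, Sparc and Spp1), and the AP-1 letters before 0. Of all 32851 windows of this length, 12.6% held the TEAD letters, 17.1% the SMAD letters and 6.75% the AP-1 letters. These are shares of windows, while the counts before them are of genes. Postn, Tnc and Spp1 had 2 windows each and so more room for a match. No overlap between motifs was found in these 11 windows apart from a pair of TEAD matches in Thbs4 that share 1 base. These matches are letters in a window, and no binding was measured.

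Postn encodes periostin, which binds collagen and fibronectin and signals through integrins of the alpha v type. The gene lies on chromosome 3 of the mouse build mm9 from 54165031 to 54194961, with 23 exons. Its level was 58.6 and 30.9 FPKM in WT skin against 106.3 and 175.2 FPKM in KO skin. Both KO libraries were above both WT libraries, with a mean of 44.7 ± 19.6 FPKM (SD, n = 2) in WT and 140.8 ± 48.7 FPKM (SD, n = 2) in KO skin. The log2 difference was 1.66 (standard error 0.58 from the spread between libraries). It was 1.30 for KO replicate 1 alone and 2.02 for KO replicate 2 alone. About 1180 to 5975 fragments stood behind each value.

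Of the 10 genes, 9 reached 1 FPKM in at least 2 libraries and were among the 13027 genes that did so. Postn was the only one of the 9 whose KO libraries were both above both WT libraries, while 35.3% of all 13027 genes met that rule. Its log2 difference stood at percentile 98.3 of those genes. Thbs4 and Spp1 had both KO libraries below both WT libraries, a pattern that 20.5% of all genes met. On average 3 of the 9 genes were higher and 6 were lower in KO skin, with a median log2 difference of -0.32 beside a median of 0.11 over all tested genes. Without KO replicate 2 the same 9 genes were 6 higher and 3 lower, with a median of 0.058. Since the genes were picked with this contrast in view, nothing is read from these counts.

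**Figure D1:**
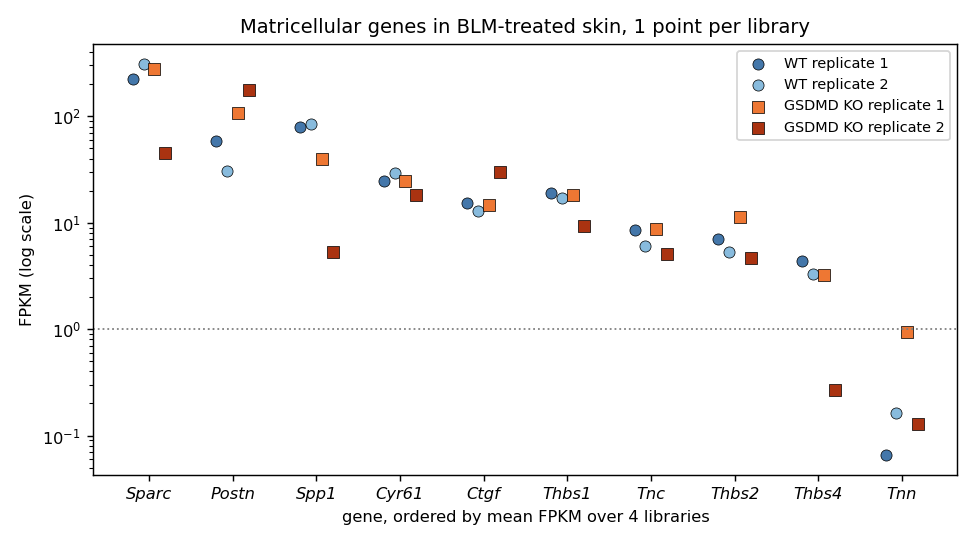
Level of each of the 10 matricellular genes in FPKM (log scale), ordered by mean level, with 1 point per library, circles for WT and squares for GSDMD KO, and a dotted line at 1 FPKM. Postn ran from 30.9 to 175.2 FPKM with both KO libraries on top, Spp1 from 5.32 to 84.9 FPKM with both KO libraries at the bottom, and Sparc had 3 libraries between 223.0 and 312.3 FPKM with KO replicate 2 at 45.6 FPKM.

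Sparc, also called osteonectin, binds collagen and takes part in the assembly of collagen fibrils. It lies on chromosome 11 from 55208002 to 55233582 and has 10 exons. Levels were 223.0 and 312.3 FPKM in WT skin against 276.2 and 45.6 FPKM in KO skin. KO replicate 1 lay between the WT libraries, and KO replicate 2 lay far below them. The log2 difference of -1.22 (standard error 1.31) thus came from KO replicate 2, with 0.07 for KO replicate 1 alone and -2.51 for KO replicate 2 alone. Sparc was the most abundant of the 10 genes in 3 libraries, and in KO replicate 2 Postn took that place.

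Spp1 encodes osteopontin, a phosphoprotein that attracts macrophages and binds integrins and CD44. It lies on chromosome 5 from 104864137 to 104870069 and has 8 exons. Its level was 79.4 and 84.9 FPKM in WT skin against 39.9 and 5.32 FPKM in KO skin. The WT libraries were close together and both KO libraries were below them, with log2 differences of -1.02 for KO replicate 1 and -3.72 for KO replicate 2. The log2 difference was -2.37 (standard error 1.35), at percentile 0.745 of all tested genes. Summed macrophage markers had the same order of groups, with 820 and 1071 FPKM in WT skin against 462 and 40.4 FPKM in KO skin. All 10 macrophage markers were lower on average in KO skin, none of them was at 0 in any library, and their part in the Spp1 values was not tested.

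The thrombospondins are multimeric glycoproteins that bind matrix and cell surface proteins, and thrombospondin 1, from Thbs1, is known to activate latent TGF-beta and to inhibit new vessels. Thbs1 (chromosome 2 from 117937612 to 117952869, 22 exons) had 18.8 and 16.9 FPKM in WT skin against 18.1 and 9.32 FPKM in KO skin. KO replicate 1 was within the WT range and KO replicate 2 was below it, with a log2 difference of -0.43 (standard error 0.45), made up of 0.01 for KO replicate 1 and -0.87 for KO replicate 2. Thbs2 (chromosome 17 from 14802507 to 14831269, 22 exons), whose product also inhibits new vessels and shapes collagen fibrils, had 7.02 and 5.28 FPKM in WT skin against 11.3 and 4.62 FPKM in KO skin. The KO libraries lay on either side of the WT libraries, with log2 differences of 0.80 and -0.34 and a mean of 0.23 (standard error 0.59). Thbs4 (chromosome 13 from 93521545 to 93564773, 22 exons), known from tendon and muscle matrix, had 4.39 and 3.29 FPKM in WT skin against 3.22 and 0.267 FPKM in KO skin. KO replicate 1 was just under the lower WT library, by less than the WT libraries differed, and only KO replicate 2, with about 10.9 fragments, was far below. Its log2 difference was -1.06 (standard error 0.88), with -0.19 for KO replicate 1 and -1.92 for KO replicate 2. With 0.1 in place of 1 added to FPKM, the difference of the means was -1.82. The skeletal muscle markers summed to 24285 and 22795 FPKM in WT and to 15297 and 15637 FPKM in KO skin, and the tendon markers to 31.5 and 26.4 against 28.6 and 17.9 FPKM. Of the muscle markers 10 of 10 were above 0 in every library, while 2 of the 5 tendon markers were at 0 in a library, and their part in the Thbs4 values was not tested.

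Ctgf and Cyr61 encode CCN proteins, small secreted adaptors that bind integrins and growth factors, and both genes are known targets of YAP and TAZ. Ctgf (chromosome 10 from 24315248 to 24318489, 5 exons) had 15.4 and 12.8 FPKM in WT skin against 14.7 and 29.6 FPKM in KO skin. KO replicate 1 lay within the WT range and KO replicate 2 above it, with a log2 difference of 0.54 (standard error 0.50) that was 0.06 and 1.02 for the single libraries. Cyr61 (chromosome 3 from 145309935 to 145312949, 5 exons) had 24.5 and 29.3 FPKM in WT skin against 24.8 and 18.2 FPKM in KO skin. It also had KO replicate 1 within the WT range but KO replicate 2 below it, and a log2 difference of -0.32 (standard error 0.25), or -0.11 and -0.54 for the single libraries. In KO replicate 2 Ctgf was thus above Cyr61, and in the other 3 libraries Cyr61 was above Ctgf. Exons of Gm15270 lie on the strand opposite to Ctgf, and the strand of the counting was not stated, so reads of the pair cannot be told apart.

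The tenascins are large oligomeric proteins that weaken cell adhesion, and tenascin-C, from Tnc, is a marker of wound edges and fibrosis. Tnc (chromosome 4 from 63620819 to 63681760, 26 exons) had 8.56 and 5.97 FPKM in WT skin against 8.80 and 5.07 FPKM in KO skin. Within each genotype the libraries differed more than the genotypes did, and the log2 difference was -0.08 (standard error 0.41), with 0.26 for KO replicate 1 and -0.43 for KO replicate 2. Exons of 8030451A03Rik lie opposite to Tnc. Tnn, for tenascin-N, which is also called tenascin-W (chromosome 1 from 162015165 to 162083711, 22 exons), had 0.0653 and 0.161 FPKM in WT skin against 0.937 and 0.129 FPKM in KO skin. It was the 1 gene of the 10 below 1 FPKM in every library, with about 6.61 to 75.1 fragments. KO replicate 1, the library with the highest hair follicle, keratinocyte and dermal papilla sums, held the highest Tnn value, and KO replicate 2 lay within the WT range, with log2 differences of 0.80 and 0.02. The part of those cell types in the Tnn values was not tested.

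**Figure D2:**
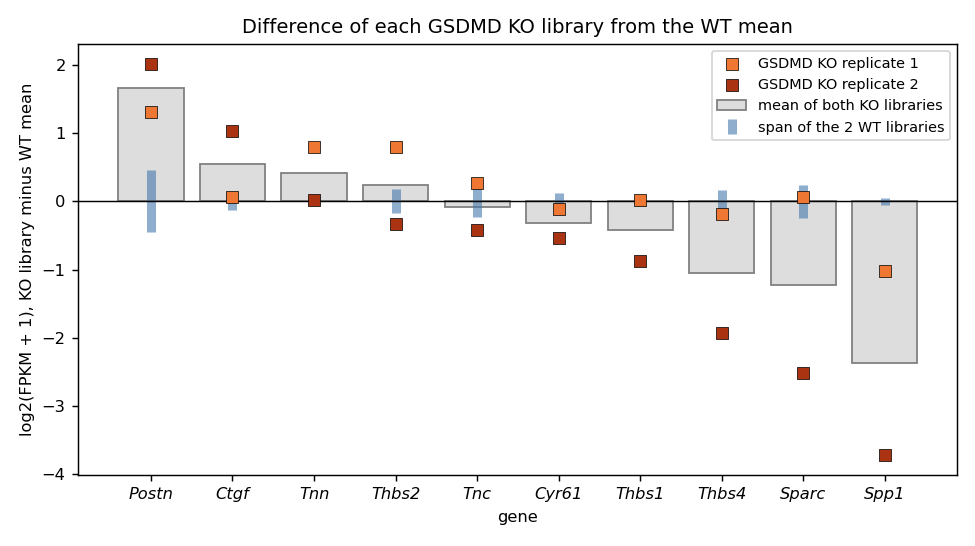
Difference of each GSDMD KO library from the WT mean in log2(FPKM + 1) for the 10 genes, with squares for the KO libraries, grey bars for their mean and a blue bar for the span of the 2 WT libraries around their mean. Postn and Spp1 have both KO libraries clear of the WT span in opposite directions (1.30 and 2.02 against -1.02 and -3.72), and Ctgf, Thbs1 and Sparc have KO replicate 1 within 0.07 of the WT mean and KO replicate 2 away from it.

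By mean level over the 4 libraries the order was Sparc, Postn, Spp1, Cyr61, Ctgf, Thbs1, Tnc, Thbs2, Thbs4 and Tnn, which compares FPKM and so levels per transcript length. Among neighbours in this order, the ranges of all 4 libraries were apart for 2 pairs, Thbs1 above Tnc and Thbs2 above Thbs4, and overlapped for the other 7 pairs. The order of Postn and Spp1 differed between genotypes, with Postn below Spp1 in both WT libraries and above it in both KO libraries. Postn ranked 1315th and 2349th of the 24441 genes in WT replicates 1 and 2, and 692nd and 411th in KO replicates 1 and 2. Spp1 had ranks 958 and 890 in WT skin and ranks 1882 and 8329 in KO skin.

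The share of each gene in the summed level of the group also differed between libraries. Postn took 13.3% and 6.15% of the summed FPKM of the 10 genes in WT replicates 1 and 2, 21.1% in KO replicate 1 and 59.7% in KO replicate 2. The share of Sparc was 50.7% and 62.2% in WT, 54.8% in KO replicate 1 and 15.5% in KO replicate 2, and that of Spp1 was 18.0%, 16.9%, 7.91% and 1.81% in the same order. In WT skin and in KO replicate 1 the group was thus mostly Sparc, and in KO replicate 2 mostly Postn. The sum itself was 439.7, 501.9, 504.2 and 293.3 FPKM. Cyr61 and Thbs1 kept shares of 4.91% to 6.19% and 3.18% to 4.29% in all 4 libraries.

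Against structural matrix genes Postn stood out in KO replicate 2 above all. Per 100 FPKM of Col1a1, which encodes a chain of type I collagen, there were 176.6 and 85.2 FPKM of Postn in WT replicates 1 and 2, 177.9 in KO replicate 1 and 7474 in KO replicate 2. KO replicate 1 was thus level with WT replicate 1, and KO replicate 2 lay far above. The same order held per 100 FPKM of Col3a1 (80.9, 50.7, 93.1 and 2715 FPKM) and per 100 FPKM of the summed fibroblast markers (20.3, 17.5, 22.4 and 421 FPKM). Per 100 FPKM of Fn1, for fibronectin, both KO libraries were above WT, with 64.0 and 36.4 FPKM of Postn in WT and 517 and 16053 in KO replicates 1 and 2. The denominators are low in KO replicate 2, where Col1a1 was at 2.34 and Fn1 at 1.09 FPKM. In KO replicate 1 the fibroblast markers were high together with Postn, in KO replicate 2 they were low with Postn at its highest, and their part in the Postn values was not tested.

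Relative to the same fibroblast markers, Ctgf stood at 5.33, 7.26, 3.09 and 71.2 FPKM per 100 FPKM in WT replicates 1 and 2 and KO replicates 1 and 2, and so was highest in KO replicate 2. Cyr61 (8.48, 16.6, 5.22 and 43.7), Thbs1 (6.53, 9.58, 3.81 and 22.4), Thbs2 (2.43, 2.98, 2.39 and 11.1) and Tnc (2.97, 3.38, 1.85 and 12.2) were also highest there. Sparc was not, with 77.3, 176.6, 58.2 and 109.7 FPKM, so it kept within the WT range in KO replicate 2 and was below it in KO replicate 1. Spp1, at 27.5, 48.0, 8.40 and 12.8 FPKM, and Thbs4, at 1.52, 1.86, 0.678 and 0.642 FPKM, were lower in both KO libraries on this scale as well.

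**Figure D3:**
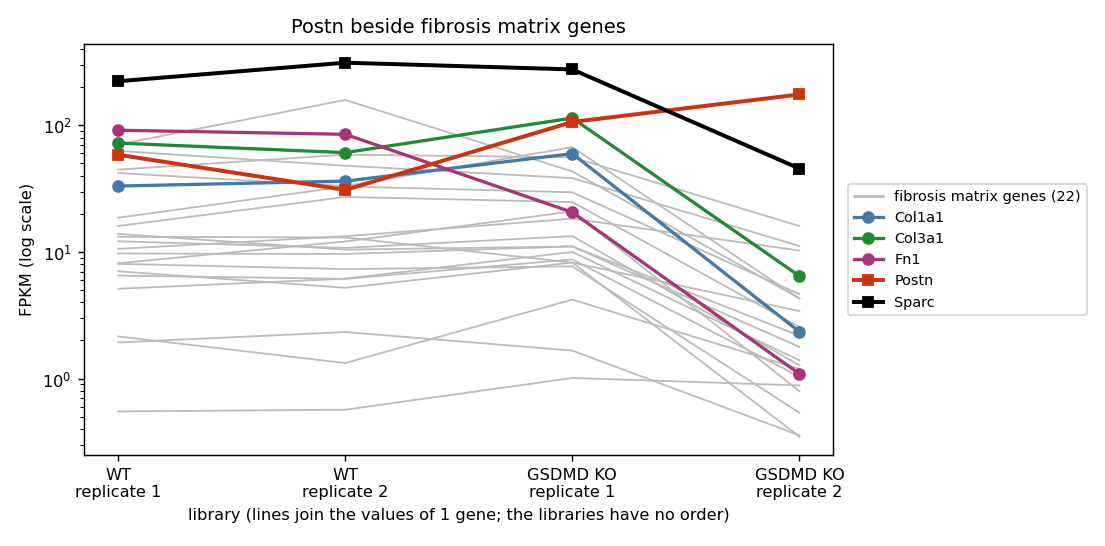
FPKM (log scale) of Postn, Sparc and 22 fibrosis matrix genes (grey, with Col1a1, Col3a1 and Fn1 in colour) in the 4 libraries, where a line joins the values of 1 gene and the libraries have no order. In KO replicate 2 Postn was at 175.2 FPKM while Col1a1, Col3a1 and Fn1 were at 2.34, 6.45 and 1.09 FPKM, and in KO replicate 1 Col1a1 and Col3a1 were above both WT libraries.

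Among the 13027 tested genes, 0 genes (0%) were called by limma, at an adjusted p under 0.05 and a log2 fold change beyond 1 in either direction. At an unadjusted p under 0.05 and the same fold, 802 genes (6.16%) were higher and 539 (4.14%) were lower in KO skin, or 632 and 707 when the libraries were scaled by median-ratio factors. That scaling moved the median log2 difference of all genes from 0.11 to 0.01, and the value of Postn from 1.66 to 1.54. Without WT replicate 2, and with no scaling, 266 genes were higher and 242 lower. Fits that left out a KO library, and so assumed the lone one to vary like the WT libraries, called 6.59% of all genes higher and 9.2% lower without KO replicate 1. When KO replicate 2 was left out they called 0.215% higher and 0.115% lower. None of the 9 tested matricellular genes changed sign under either other scaling.

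The structural matrix genes against which Postn was set were mostly lower on average in KO skin, and since that direction entered the choice of Postn it is described without a test. Of 22 fibrosis matrix genes 21 passed the filter on low values, 2 were higher and 19 lower in KO skin, and their median log2 difference was -1.01 beside 0.11 over all genes. Fn1 had 91.5 and 84.9 FPKM in WT skin against 20.6 and 1.09 FPKM in KO skin (log2 difference -3.73, standard error 1.68 from the spread between libraries). Timp1, an inhibitor of matrix proteases, had 70.6 and 158.6 against 43.2 and 4.30 FPKM (-2.80, standard error 1.64). Acta2, for smooth muscle actin, had 62.8 and 48.0 against 38.3 and 11.1 FPKM. In Fn1, Timp1 and Acta2 neither KO library reached the lower WT library. Col1a1 differed from them, with 33.2 and 36.2 FPKM in WT, 59.8 FPKM in KO replicate 1 and 2.34 FPKM in KO replicate 2 (-1.32, standard error 2.09). The higher genes were Col12a1 (0.32) and Bmp1 (0.20), the latter a procollagen protease. The list's median was 0.23 for KO replicate 1 alone and -2.23 for KO replicate 2 alone, so its direction rests on KO replicate 2. Exons of Gm17329 lie opposite to Col1a1 and those of Apol7d opposite to Fn1.

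Of the other genes of the matricellular families, 9 of 19 were tested, with 2 higher and 7 lower in KO skin and a median of -0.47. Without KO replicate 2 this turned to 7 higher and 2 lower with a median of 0.54, and without KO replicate 1 the median was -1.36. None was called, 0 of the 9 passed the unadjusted rule with its 2-fold limit, beside 6.16% of all genes higher and 4.14% lower, and the lowest adjusted p was 0.281. Without KO replicate 1, 3 of the 9 were called lower, beside 9.2% of all genes, and the unadjusted rule found 6 lower, beside 12.3%. That rule also found 1 lower without WT replicate 1, beside 3.29%, and 1 higher without KO replicate 2, beside 5.63%. Smoc2, a SPARC-related calcium-binding protein, was the only tested gene of the list besides Wisp2 (0.22) with a log2 difference above 0. It had 17.4 and 15.7 FPKM in WT skin against 26.0 and 25.5 FPKM in KO skin, so both KO libraries were above both WT libraries (log2 fold change 0.61, standard error 0.23, adjusted p = 0.281 by limma). Smoc1, its close relative, had 5.32 and 20.8 against 6.29 and 2.43 FPKM, and the lower mean rests on a single high WT library and on KO replicate 2. Sparcl1 (-1.01), a paralog of Sparc, and Fstl1 (-0.92), a follistatin-like glycoprotein of the SPARC family, were lowest in KO replicate 2, as Sparc was, with KO replicate 1 above both WT libraries. Sparcl1 was at 39.3 and 37.8 FPKM in WT, 43.0 in KO replicate 1 and 7.75 in KO replicate 2, and Fstl1 at 36.8, 23.7, 52.4 and 3.88 FPKM. Thbs3 (-0.67), another thrombospondin, was also lowest in KO replicate 2. Exons of Gm16990 and Mtx1 lie opposite to Sparcl1 and Thbs3.

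Receptors for these proteins are chiefly integrins, CD44, CD36, CD47 and syndecans. Of 17 listed, 15 were tested, with 4 higher and 11 lower in KO skin and a median of -0.43, which came to -0.22 when KO replicate 2 was left out and to -0.66 when KO replicate 1 was. None was called, and 2 were lower and 0 higher at an unadjusted p under 0.05 with the 2-fold limit, beside 4.14% and 6.16% of all genes. The number lower was 0 without WT replicate 1 or KO replicate 2, beside 3.29% and 2.56%, and 1 without WT replicate 2, beside 1.86%, and without KO replicate 1 the adjusted rule called 4 of the 15 lower, beside 9.2% of all genes. The 2 genes were Itga5, a chain of the fibronectin receptor, with 14.9 and 16.0 FPKM in WT skin against 8.00 and 2.58 FPKM in KO skin (log2 fold change -1.53, standard error 0.47, adjusted p = 0.254 by limma), and Itga4, with 2.82 and 1.60 against 0.741 and 0.358 FPKM (-1.03, standard error 0.31, adjusted p = 0.248 by limma). Exons of Cerkl lie opposite to Itga4, those of Gm13684 opposite to Itgav and those of Nt5dc2 opposite to Stab1. The scavenger receptors Lrp1 (-1.43) and Stab1 (-1.37) were also lower in both KO libraries, and neither passed. They were not alone, since for 9 of the 15 tested receptors neither KO value reached the lower WT value, beside 20.5% of all tested genes. For 2 of the 15, Itgav and Sdc4, each KO value exceeded the higher WT value, beside 35.3% of all tested genes. Itgav, whose product pairs with several beta chains to bind periostin and osteopontin, was higher in both KO libraries, at 5.92 and 8.33 FPKM against 4.88 and 2.87 FPKM (0.75, standard error 0.33, adjusted p = 0.315 by limma). The heparan sulphate proteoglycan Sdc4 was at 75.3 and 68.6 FPKM in KO and 43.4 and 35.8 FPKM in WT skin (0.85, standard error 0.24, adjusted p = 0.248 by limma). Cd44, a receptor for osteopontin and hyaluronan, had 44.8 and 30.3 FPKM in WT skin against 41.3 and 78.6 FPKM in KO skin, so the groups overlapped, and Itgb6 (0.20) overlapped as well.

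Upstream regulators were listed from the TGF-beta, IL-4 and IL-13 pathways, known inducers of periostin, and from the Hippo pathway, whose YAP and TAZ factors induce the CCN genes. Of 20 listed, 18 were tested, with 8 higher and 10 lower, a median of -0.06, and 0 in either direction past the adjusted or the unadjusted rule, the latter beside 6.16% of all genes higher and 4.14% lower. The median was 0.06 without WT replicate 1, -0.19 without WT replicate 2, -0.28 without KO replicate 1, 0.01 without KO replicate 2 and -0.16 with median-ratio factors. Without KO replicate 1, 1 of the 18 was called lower, beside 9.2% of all genes, and without WT replicate 1 the unadjusted rule found 2 higher, beside 6.82% of all genes. Il13ra1, a receptor chain for IL-13, had 12.1 and 6.95 FPKM in WT skin against 15.2 and 20.8 FPKM in KO skin (log2 fold change 0.88, standard error 0.34, adjusted p = 0.292 by limma). The TEAD factor Tead3 had 16.1 and 11.1 against 25.4 and 25.2 FPKM (0.87, standard error 0.27, adjusted p = 0.254 by limma), and its partner Yap1 had 23.6 and 21.0 against 34.2 and 45.3 FPKM (0.80, standard error 0.26, adjusted p = 0.260 by limma). For these 3 genes and Smad2 (0.38) the KO libraries were above both WT libraries, 4 of 18 beside 35.3% of all genes, and none passed the threshold. Tgfb1, the ligand best known for driving fibrosis, had 18.2 and 21.3 FPKM in WT skin against 18.4 and 7.64 FPKM in KO skin, so KO replicate 1 was within the WT range. Tead4 (-0.54), Il4ra (-0.44) and Smad3 (-0.34) were the other regulators with the lowest differences. The ligands Il4 and Il13 were at most at 0.419 FPKM in all 4 libraries and were not tested. Opposite to Yap1 and Il4 lie exons of RP23-349N15.1 and Kif3a.

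Of 20 further YAP and TAZ targets, Tgfb2 of the previous list among them, 19 were tested, with 11 higher and 8 lower and a median of 0.07. The median turned to -0.04 with median-ratio factors, -0.06 without WT replicate 2 and -0.02 without KO replicate 1, and was 0.37 without WT replicate 1 and 0.35 without KO replicate 2. None was called, and 1 was lower and 0 higher by the unadjusted rule, beside 4.14% and 6.16% of all genes. Without KO replicate 1 the adjusted rule called 2 lower and 1 higher, beside 9.2% and 6.59% of all genes. The gene lower by the unadjusted rule was Ankrd1, which encodes a protein of the muscle sarcomere as well as being a standard YAP target, with 85.9 and 89.5 FPKM in WT skin against 23.6 and 32.0 FPKM in KO skin (log2 fold change -1.64, standard error 0.26, adjusted p = 0.248 by limma). Among the skeletal muscle markers, 10 of 10 were lower in KO skin on average, and their part in the Ankrd1 values was not tested. Ccdc80 (-1.01), Gadd45a (-0.44) and Arhgef17 (-0.39) followed. On the higher side were Nt5e (0.85), Igfbp3 (0.67), Fjx1 (0.60) and Crim1 (0.57), none of which passed. Ctgf and Cyr61, the best known targets of the pathway, had differences of opposite sign. Opposite to Gadd45a and Crim1 lie exons of E230016M11Rik and Fez2.

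**Figure D4:**
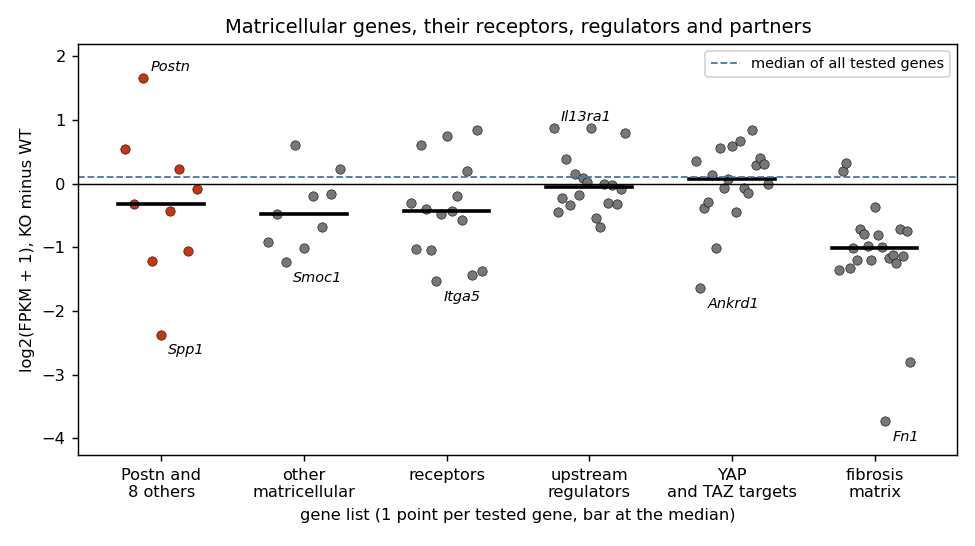
Difference between GSDMD KO and WT means in log2(FPKM + 1) for the tested genes of each list, 1 point per gene, with a black bar at the list's median and a dashed line at the median of all tested genes (0.11). The cell type marker lists are not plotted. Postn (1.66) lies above every other gene plotted, and the fibrosis matrix genes have the lowest median of the lists plotted (-1.01), with Fn1 at -3.73.

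The genes whose values over the 4 libraries lay nearest to those of Postn were found by Euclidean distance of log2(FPKM + 1) after each gene had been centred on its own mean. The 6 nearest of the 13027 tested genes were S1pr5, Calcb, Emp2, Sgpp1, Nfe2l3 and Tnfrsf19, at distances of 0.0972 to 0.166. S1pr5, a receptor for sphingosine 1-phosphate, had 4.32 and 2.02 FPKM in WT skin against 9.51 and 15.8 FPKM in KO skin. Emp2, an epithelial membrane protein, had 32.2 and 18.7 against 63.3 and 95.6 FPKM, and Sgpp1, a phosphatase of sphingosine 1-phosphate, had 23.0 and 10.2 against 39.0 and 68.1 FPKM. Calcb, for a calcitonin gene-related peptide, ran from 1.14 to 10.4 FPKM, the transcription factor gene Nfe2l3 from 1.33 to 13.5, and Tnfrsf19, a receptor of the TNF family, from 6.17 to 34.3 FPKM. All 6 had WT replicate 2 lowest and KO replicate 2 highest, as Postn did. None of the matricellular genes was near, the closest being Ctgf at 1.22, in place 2228 among the tested genes, and the farthest Spp1 at 4.75, in place 12940. With 4 libraries such a likeness is a description of these values only.

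Values of the cell type markers stand beside Postn as follows. The keratinocyte markers summed to 5012 and 3577 FPKM in WT skin against 10794 and 5254 FPKM in KO skin, and 4 of the 8, Krt5, Krt14, Trp63 and Dsp, had both KO libraries above both WT libraries, beside 35.3% of all genes. Of the 8 markers 6 were highest in KO replicate 1, 2 were highest in KO replicate 2, where Postn was highest, and 3 were lowest there. Hair follicle markers summed to 11.6, 2.38, 378.6 and 17.4 FPKM, with 6 of 15 at 0 in a library, and dermal papilla markers to 14.9, 28.8, 45.5 and 18.0 FPKM. Smooth muscle and pericyte markers were at 1216, 1303, 1004 and 670 FPKM, endothelial markers at 103.8, 165.8, 138.7 and 18.2, adipocyte markers at 510, 1558, 618 and 87.7, and Schwann cell markers at 181, 150, 205 and 46.4 FPKM. No fibroblast, macrophage, endothelial or keratinocyte marker was at 0 in any library. The part of these cell types in the Postn values was not tested.

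**Figure D5:**
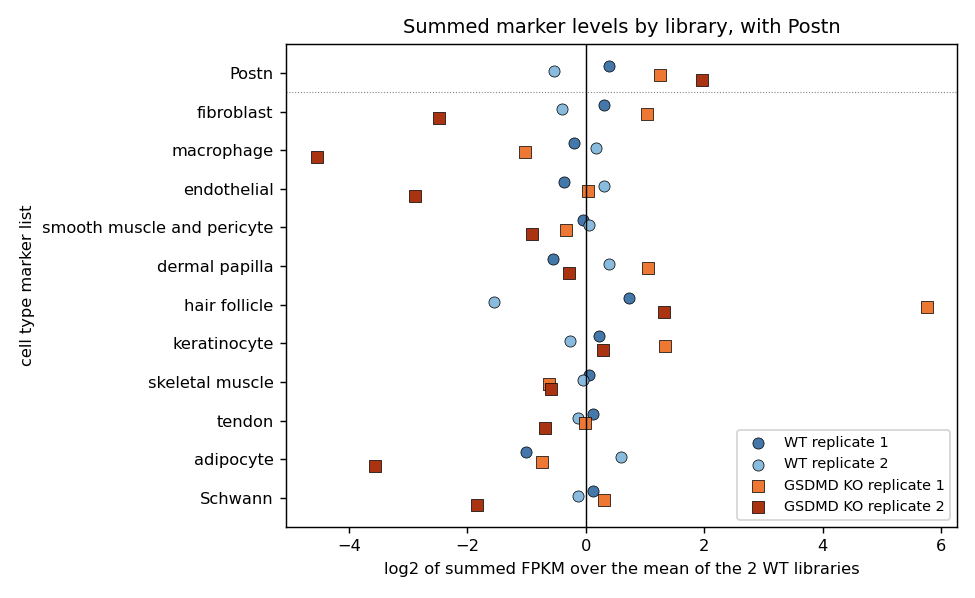
Summed FPKM of each cell type marker list in each library as log2 of its ratio to the mean of the 2 WT libraries, with Postn on top, circles for WT and squares for GSDMD KO. KO replicate 2 is lowest for the fibroblast, macrophage, endothelial and adipocyte lists (41.6, 40.4, 18.2 and 87.7 FPKM) while it is highest for Postn, and KO replicate 1 is highest for the hair follicle list (378.6 FPKM).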

How the data were processed

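RNA-seq of BLM-treated skin from 2 WT and 2 GSDMD KO samples was analysed. The submitters' processing notes name mm9, HISAT2 version 2.0.1 and StringTie version 2.0.6, and the study's methods also describe read counting and DESeq2. Yet the deposited table holds FPKM values, in which the authors' division by transcript length and depth is already made, so no count test was run, and whether counting used strand is not given in the sources used here. No interval was derived from the approximate depths.

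Groups were taken from the labels. The members and gene lists were chosen with earlier results of these data known, and limma p-values are not given for the members or the fibrosis matrix list. Values were transformed to log2(FPKM + 1), and the 13027 genes with at least 1 FPKM in 2 or more libraries were fitted with limma version 3.58.1 (R version 4.3.3), with a genotype term alone and a mean-variance trend, after the script had been tested on simulated data. The call rule was a Benjamini-Hochberg adjusted p under 0.05 together with a log2 fold change above 1 or below -1. Named were Gsdmd, the 10 genes, up to 4 genes per list and direction with the largest differences, and the 6 genes nearest to Postn. Cell type markers, Col3a1, Il4 and Il13 were named after their values were seen, and 1 gene of the fibrosis matrix list is counted but not reported by name here. The correlation of deviations between same-numbered libraries was -0.20, and as no source ties the numbers to a litter or batch the fit was left unpaired. Alternatives were another pseudocount, other filters and scalings, no trend, a replicate block, leaving out each library and, chosen after seeing the data, a crossed block. Coordinates are from GENCODE for mm9: of 20310 genes found by symbol, 99.2% overlapped the deposited locus. Promoters are from RefSeq, and protein sequences were not used here. Python version 3.11.15 with pandas version 2.3.3 was used for tables.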

Additional observations from a re-analysis of the deposited data

How the results depend on the processing

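With 2 libraries per genotype an exact two-sided permutation test of 1 gene cannot go below p = 0.333, and the depth behind FPKM is only approximate. The log2 difference of Postn was 1.21 to 2.11 when each library was left out in turn. Since both KO libraries were above both WT libraries, no such fit could turn its sign. The filters, the trend and the blocks cannot change this difference at all. It was 1.54 with median-ratio factors, 1.68 with a pseudocount of 0.1 FPKM and 1.70 with libraries rescaled to an equal sum. As Postn was picked for being higher in KO mice, nothing is read from its direction. Leaving out each library in turn gave 0 to 2058 calls among all tested genes (2058 without KO replicate 1, 43 without KO replicate 2), 266 to 1412 genes higher and 242 to 1605 lower by the unadjusted rule, and 0 to 3 calls among other matricellular genes, 0 to 4 among receptors, 0 to 1 among upstream regulators and 0 to 3 among YAP and TAZ targets, with the highest count of calls each time without KO replicate 1. That fit called 6.59% of all genes higher and 9.2% lower. The fibrosis matrix count in it, 19 lower (0 in the other fits), is no test, since the direction of that list entered the choice of Postn, and nothing is read from it. Such a fit rests on 1 KO library assumed to vary like the WT libraries. By the unadjusted rule 352 genes were lower when 1 FPKM was required in all 4 libraries, since fewer genes were tested. The sign turned in leave-one-out fits for Tnc (0.15 without WT replicate 1, 0.26 without KO replicate 2, range -0.43 to 0.26), Thbs1 (0.014 without KO replicate 2, lowest -0.87), Thbs2 (-0.34 without KO replicate 1, range -0.34 to 0.80) and Sparc (0.065 without KO replicate 2, lowest -2.51), and the cause was not tested. With the replicate block 907 genes were higher and 686 lower by the unadjusted rule, against 819 and 681 with the numbers crossed, and 0 genes were called in either. The block took the receptors lower by the unadjusted rule from 2 to 4 (5 with the numbers crossed). Requiring 1 FPKM in all libraries dropped Thbs4, and Tnn was fitted only with no filter.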
